A study of Drosophila melanogaster with 18 samples.

Results

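Egg chambers in which the follicle cells carried an active epidermal growth factor receptor (EGFR) were set directly against egg chambers in which the same GAL4 line drove an active receptor for bone morphogenetic proteins (BMP). The comparison took the 3 arrays titled EGFR gain of function and the 3 titled BMP gain of function, 6 of the 18 arrays of the series, and all 13966 probe sets other than Affymetrix controls. EGFR gain females had the genotype CY2-GAL4, UAS-lambda-Top, and BMP gain females had CY2-GAL4, UAS-tkv*. Wild type A was OreR, with neither driver nor transgene, and its 3 arrays were run in the same round. All were females aged 6 to 8 days, kept on yeast at 23 °C for 24 h, from which egg chambers of stages 9 to 10 were dissected by hand, with 100 pooled for each replicate out of 300 per genotype. The replicates of a genotype were therefore pools from the same 300 egg chambers, gathered at 20 per collection. A p-value here weighs a difference against the spread of those pools, which may be technical. Both mutant groups carry CY2-GAL4, which drives transgenes in follicle cells, so the driver is shared. The UAS lines differ, and a difference in strain background cannot be told apart from a difference between the receptors. Wild type A lacks the driver, so against it driver and strain background cannot be told apart from the receptor.

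A Drosophila egg chamber holds an oocyte and its nurse cells, wrapped in an epithelium of follicle cells that will lay down the vitelline membrane and the chorion. The oocyte secretes Gurken, a ligand of EGFR, which sets dorsal follicle cell fates. Anterior follicle cells secrete Decapentaplegic (Dpp), a BMP ligand, and cells that read both signals become the dorsal appendages and the operculum of the eggshell. Thickveins (tkv) is a type I BMP receptor, and its active form signals without ligand. Lambda-Top is an EGFR that is dimerized, and so active, without ligand. A direct comparison of these 2 groups asks which transcripts differ between the pathways when each is switched on throughout the epithelium.

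Values are log2 levels as deposited, a difference is EGFR gain minus BMP gain on that scale with its standard error (SE), and a probe set was called at an adjusted p under 0.05 in limma. Between EGFR gain and BMP gain 178 probe sets were called, 1.27% of those tested, of which 96 were higher in EGFR gain (0.687%) and 82 lower (0.587%). Of the calls 66 were at least 2-fold (0.473%), 46 of them higher and 20 lower, and the median size of a called difference was 0.73. The called probe sets named 154 genes, 80 higher and 74 lower, and where a gene had several calls they never disagreed in sign. In all 178 the 3 EGFR gain arrays did not overlap the 3 BMP gain arrays, which was also true of 19.1% of all probe sets. The number of calls fell when single arrays were left out, to 96 without EGFR gain replicate 1, 110 without replicate 2, 89 without BMP gain replicate 1, 94 without replicate 2 and 106 without replicate 3, and was 138 without EGFR gain replicate 3. Among genes, each represented by its brightest probe set, 1.35% were called, with 0.684% higher and 0.665% lower. These shares belong beside each count of list members below.

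**Figure D1:**
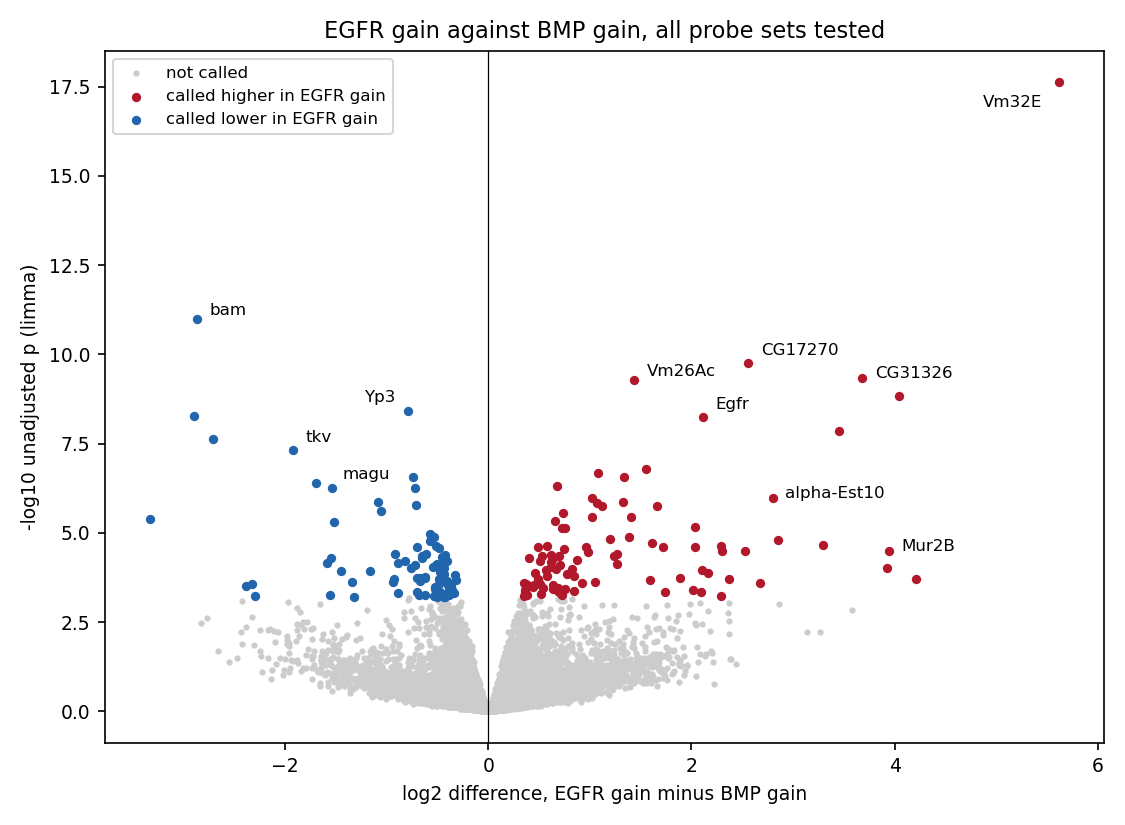
Each point is 1 of 13966 probe sets, placed by its log2 difference (EGFR gain minus BMP gain, horizontal) and the -log10 of its unadjusted limma p (vertical); red marks the 96 called higher in EGFR gain, blue the 82 called lower, and grey those not called. Vm32E at 5.62 and bam at -2.86 stand highest on their sides of the plot.

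The 6 arrays had medians of 4.48 to 4.51 and Spearman correlations of 0.966 to 0.969 with the other arrays of their group. The actin control probe sets gave a 3' minus 5' difference of 1.37, 0.85 and 1.63 in EGFR gain and of 1.22, 1.18 and 1.13 in BMP gain, so the EGFR gain arrays spread to both sides of the BMP gain arrays. Germline marker genes summed to linear levels of 4850 to 5360 in EGFR gain and 5050 to 5310 in BMP gain, and 0 of 12 were called. Of 10 follicle cell markers, 1 was called higher (Fcp3C) and 1 lower (Yp3), and their sums were 39800 to 40500 in EGFR gain and 41200 to 42400 in BMP gain. Muscle markers, which can come from the ovariole sheath, summed to 660 to 883 in EGFR gain and 702 to 872 in BMP gain, with 0 of 10 called and 7 of 10 lower in EGFR gain. Sums for fat body markers were 97 to 125 in EGFR gain and 87.5 to 158 in BMP gain (7 genes), for hemocyte markers 112 to 146 and 102 to 123 (8 genes), and for neuron markers 18.4 to 27.2 and 12.9 to 15 (5 genes), with none called. The sums of the follicle cell and neuron markers did not overlap between the groups. A linear sum is weighted to its brightest genes, and that of the follicle cell markers includes the called genes Yp3 and Fcp3C. At an unadjusted p under 0.05 the limma fit had 3 of the germline, 3 of the follicle cell and 4 of the muscle markers. It also had 2 of the fat body, 1 of the hemocyte and 1 of the neuron markers, beside 11.3% of all probe sets. The muscle genes under this threshold, Act88F, Mlc1, Mlc2 and Tm2, were lower in EGFR gain, with differences of -2.42 to -0.63. The hemocyte genes Hml, eater, NimC1 and lz lay at the low end of the scale in both groups. The part of these cell types in the results was not tested. In such bulk RNA fewer cells of a type and less RNA per cell cannot be told apart.

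The driven receptors read as labelled. Egfr, by the probe set with the lower mean over all 18 arrays, had log2 levels of 6.18, 6.52 and 6.17 in EGFR gain and 4.07, 4.49 and 3.97 in BMP gain, against 4.40, 4.35 and 4.51 in wild type A. The EGFR gain arrays lie above all the others, and the difference was 2.11 ± 0.16 (SE; adjusted p = 9.0e-06), or 4.33-fold. The other Egfr probe set gave -0.05 ± 0.21 (0.97). The tkv probe set with the lower mean had levels of 6.32, 6.64 and 6.29 in EGFR gain and 8.33, 8.44 and 8.25 in BMP gain, with wild type A at 6.46, 6.61 and 6.53. It was lower in EGFR gain by the same measure, at -1.92 ± 0.18 (5.6e-05), with EGFR gain replicate 2 just above the wild type A range and the other 2 EGFR gain arrays just below it. The other tkv probe set gave -0.43 ± 0.10 (0.049), a call kept when EGFR gain replicate 2 was left out and lost without any other single array (0.19 without EGFR gain replicate 1 or BMP gain replicate 3). RNA of the transgene and of the fly's own gene cannot be told apart on these probe sets.

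Genes for the vitelline membrane, the inner eggshell layer that follicle cells secrete at these stages, held the widest difference between the groups. Vm32E, which encodes a vitelline membrane protein, had levels of 11.49, 11.28 and 11.63 in EGFR gain and 5.79, 5.88 and 5.90 in BMP gain, against 12.27, 12.32 and 12.32 in wild type A. EGFR gain was close below wild type A and BMP gain far below both, with a difference of 5.62 ± 0.08 (adjusted p = 3.3e-14), or 49.1-fold. Vm26Ac, from the same protein family, had levels of 9.77, 9.74 and 9.99 in EGFR gain, 8.48, 8.38 and 8.33 in BMP gain and 10.20, 10.18 and 10.23 in wild type A. Its difference was 1.43 ± 0.09 (1.4e-06), and the groups again stood in the order BMP gain, EGFR gain, wild type A from low to high. The calls of both Vm32E and Vm26Ac held in the fit to the 6 arrays alone (0.00052 and 0.024).

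Other vitelline membrane genes of high level were not called. Vm26Aa stood at 12.63, 12.55 and 12.60 in EGFR gain and 12.62, 12.59 and 12.57 in BMP gain, a difference of -0.00 ± 0.06 whose 95% interval ran from -0.12 to 0.12. Vm34Ca gave -0.03 ± 0.07 (interval -0.18 to 0.12), dec, which encodes the defective chorion proteins, gave 0.02 ± 0.06 (-0.11 to 0.15), and psd (palisade) gave -0.26 ± 0.10 (interval -0.47 to -0.05, adjusted p = 0.30). The psd arrays did not overlap, at 10.14, 10.05 and 10.14 in EGFR gain and 10.48, 10.31 and 10.33 in BMP gain. Vm34Ca and Vm26Aa lie near the highest value of these arrays, 13 to 13.1, and how far a difference can be read there was not tested. The eggshell genes clos, fs(1)N and ndl, the last a follicle cell protease that acts in the ventral cue, differed by -0.04, 0.07 and 0.38 and were not called (adjusted p from 0.33 to 0.95).

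Yellow-family and later eggshell genes were higher in EGFR gain in part. yellow-g, an eggshell gene of the yellow family, had levels of 7.48, 7.34 and 8.33 in EGFR gain and 5.68, 6.21 and 5.58 in BMP gain, against 6.55, 7.68 and 7.60 in wild type A. EGFR gain overlapped wild type A and lay above BMP gain, by 1.89 ± 0.37 (adjusted p = 0.023). Its neighbour yellow-g2 gave 1.09 ± 0.43 (0.35), with 7.47, 7.19 and 8.02 in EGFR gain and 5.92, 7.12 and 6.40 in BMP gain. Fcp3C (Follicle cell protein 3C) had levels of 10.76, 11.04 and 11.07 in EGFR gain, 9.76, 10.14 and 9.82 in BMP gain and 10.42, 10.74 and 10.78 in wild type A, a difference of 1.05 ± 0.21 (0.027). Of the 12 vitelline membrane and early eggshell genes measured 4 were higher, 0 lower and 8 not called. Over all genes 0.684% were higher and 0.665% lower. The list's median difference was 0.23, beside -0.00 over all genes.

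Among chorion genes, which build the outer eggshell and are mostly switched on after these stages, 1 of 8 measured was higher. Over all genes 0.684% were. Cp38 had levels of 9.85, 9.51 and 10.68 in EGFR gain and 7.74, 9.00 and 8.09 in BMP gain, against 10.27, 11.14 and 10.91 in wild type A, a difference of 1.74 ± 0.38 (adjusted p = 0.040). Cp36 and Cp7Fc gave 0.73 ± 0.32 (0.40) and 0.73 ± 0.39 (0.53), and Cp19 gave 0.45 (0.68). Cp15, Cp16 and Cp18 lay from -0.38 to -0.17, and the list had a median of 0.23. BMP gain replicate 2 was the highest BMP gain array for Cp38, Cp36, Cp7Fc, Cp19 and Cp16. EGFR gain replicate 3 was the highest EGFR gain array for Cp38, Cp36, Cp7Fc, Cp19 and Cp15, and replicate 1 for Cp16 and Cp18. The mix of stages in each pool was not tested. The calls of yellow-g and Cp38 were lost without EGFR gain replicate 1 or 3 or BMP gain replicate 1 or 3 (adjusted p up to 0.10 and 0.16), and that of Fcp3C without any single array except BMP gain replicate 2 (up to 0.11).

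Yolk protein genes, which follicle cells transcribe for uptake by the oocyte, differed in 1 of 3 cases. Yp3 had levels of 11.74, 11.67 and 11.76 in EGFR gain and 12.50, 12.50 and 12.53 in BMP gain, with 11.87, 11.88 and 11.86 in wild type A. The BMP gain arrays lie above both other groups, and the difference was -0.79 ± 0.06 (adjusted p = 7.6e-06). Yp1 and Yp2 gave 0.04 ± 0.06 and -0.01 ± 0.07, with 95% intervals of -0.09 to 0.16 and -0.15 to 0.13. Yp1 and Yp2 lie at about 12.9 in both groups, near the top of the scale, with the same limit.

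**Figure D2:**
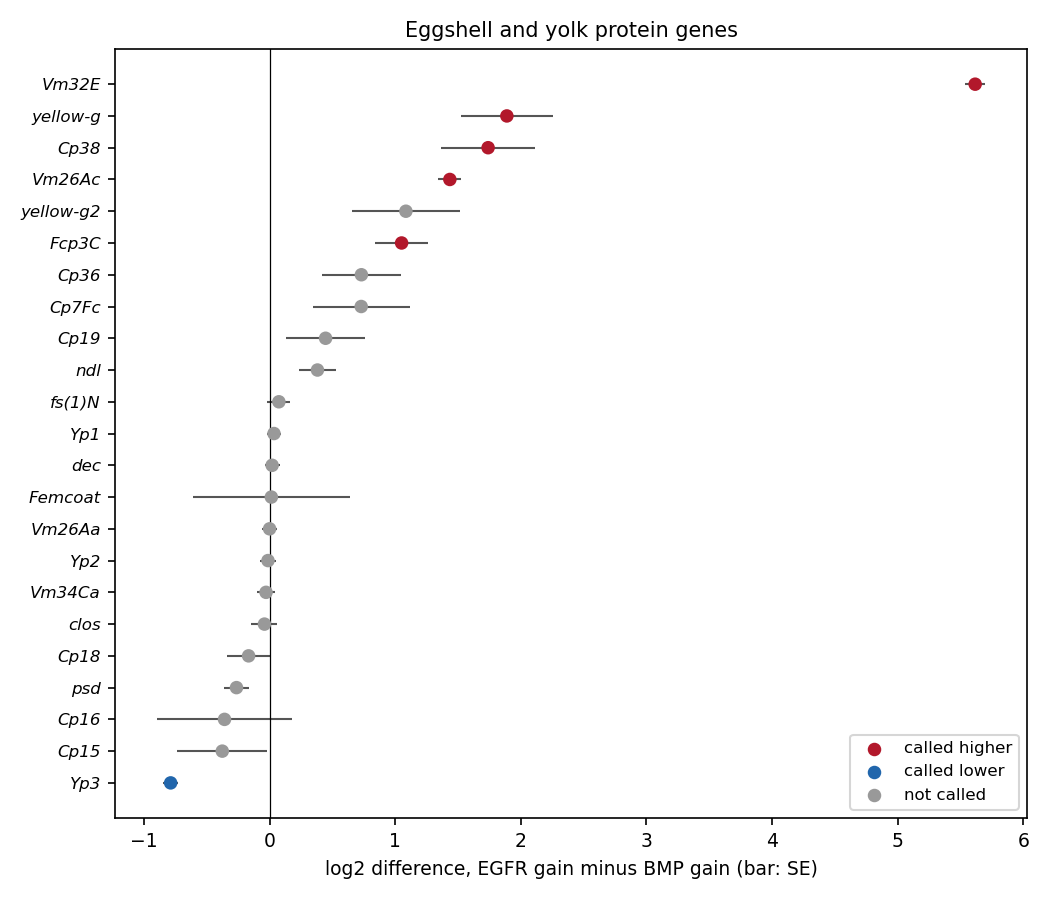
Points give the log2 difference (EGFR gain minus BMP gain) of the 23 measured eggshell and yolk genes and bars its SE; red is called higher, blue called lower, grey not called. Vm32E lies alone at 5.62, and 4 other eggshell genes and Yp3 are the remaining calls.

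Within the EGFR pathway the genes listed as inhibitors of the receptor or its cascade all had positive differences by their brightest probe sets. By these, 1 of 5 was called. Cbl, which encodes a ubiquitin ligase that removes active EGFR, had levels of 9.37, 9.55 and 9.35 in EGFR gain and 8.77, 8.82 and 8.96 in BMP gain, against 9.30, 9.24 and 9.22 in wild type A. The difference was 0.57 ± 0.09 (adjusted p = 0.0066), with BMP gain below both other groups. The other Cbl probe set, at lower levels, gave -0.06 ± 0.47 (0.98). kek1, which encodes a transmembrane inhibitor of EGFR, had levels of 6.00, 5.85 and 5.98 in EGFR gain, 3.62, 3.96 and 4.67 in BMP gain and 4.18, 4.37 and 3.06 in wild type A. Its EGFR gain arrays were clear of all the others, but the difference of 1.86 ± 0.49 was not called (0.11). With dim probe sets filtered out it was called (0.039), but kek1 passes that filter only through EGFR gain, where it is high. Argos (aos), a secreted inhibitor, gave 2.04 ± 1.16 (0.56) at levels near the bottom of the scale. For sprouty (sty) the difference was 0.86 ± 0.55 (0.63), and for echinoid (ed) 0.05 ± 0.13 (0.95). The dimmer ed probe sets gave -0.12, 0.09 and -0.47, none of them called.

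None of the remaining EGFR pathway genes was called in the limma fit. The ligand genes spi, grk and Krn and the ligand trafficking gene S gave 0.05 to 0.12, each with a 95% interval within -0.22 to 0.37. Of 9 cascade genes measured, including drk, Sos, Dsor1 and Egfr itself by its probe set with the higher mean, 0 were called, and csw, which encodes a phosphatase of the cascade, had the most negative value at -0.83 ± 0.22 (adjusted p = 0.11), with arrays that did not overlap and a call, among the alternatives run, only under array weights (0.05 as rounded). edl, which encodes a regulator of the ETS factors of the pathway, had levels of 5.15, 5.38 and 5.75 in EGFR gain and 4.43, 4.75 and 4.70 in BMP gain, a difference of 0.80 ± 0.21 (0.11) that was called where dim probe sets were filtered out (0.038). In all 22 of 32 EGFR pathway genes were measured, with 1 higher, 0 lower and a median of 0.09, and vn, rho, pnt and the kinase genes Raf and rl are not analysed here.

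Of the BMP pathway 22 of 26 genes were measured, and 0 were higher, 3 lower and 19 not called in EGFR gain, with a median of -0.02. bam, a germline differentiation gene that BMP signalling represses in germline stem cells, had levels of 4.94, 5.04 and 5.33 in EGFR gain and 7.99, 8.00 and 7.90 in BMP gain, against 5.92, 5.75 and 6.06 in wild type A. EGFR gain lay below wild type A and BMP gain above it, and the difference of -2.86 ± 0.13 (adjusted p = 7.2e-08) was a 7.28-fold lower level in EGFR gain. The bam partner gene bgcn, at 0.05, 0.23 and 0.04 in EGFR gain and 1.69, 2.52 and -0.31 in BMP gain, was not called (0.45). None of 22 measured germline and oocyte genes was called by limma, and 4 had an unadjusted p under 0.05, beside 11.3% of all probe sets. magu, which encodes a secreted modulator of BMP ligand spread also called Pentagone, had levels of 5.73, 5.74 and 5.82 in EGFR gain, 7.35, 7.24 and 7.32 in BMP gain and 6.41, 6.49 and 5.98 in wild type A. Its difference was -1.54 ± 0.17 (0.00038), in the same order of groups as bam. The third was tkv, the driven receptor gene.

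The inhibitory Smad gene Dad, a target and feedback inhibitor of BMP signalling in other Drosophila tissues, did not separate the 2 groups. It had levels of 4.18, 3.90 and 4.20 in EGFR gain and 4.14, 4.23 and 4.19 in BMP gain, against 2.75, 2.75 and 2.78 in wild type A. Both mutant groups lie above wild type A, and their difference was -0.10 ± 0.66 (adjusted p = 0.98), with an interval of -1.52 to 1.33, the SE being pooled over all 6 groups. The ligand genes dpp and gbb gave -0.01 ± 0.50 and -0.78 ± 0.68, the receptor genes sax and put -0.01 ± 0.13 and 0.11 ± 0.14, and the Smad genes Mad and Med 0.02 ± 0.09 and 0.23 ± 0.10, none of them called (adjusted p from 0.42 to 0.999).

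**Figure D3:**
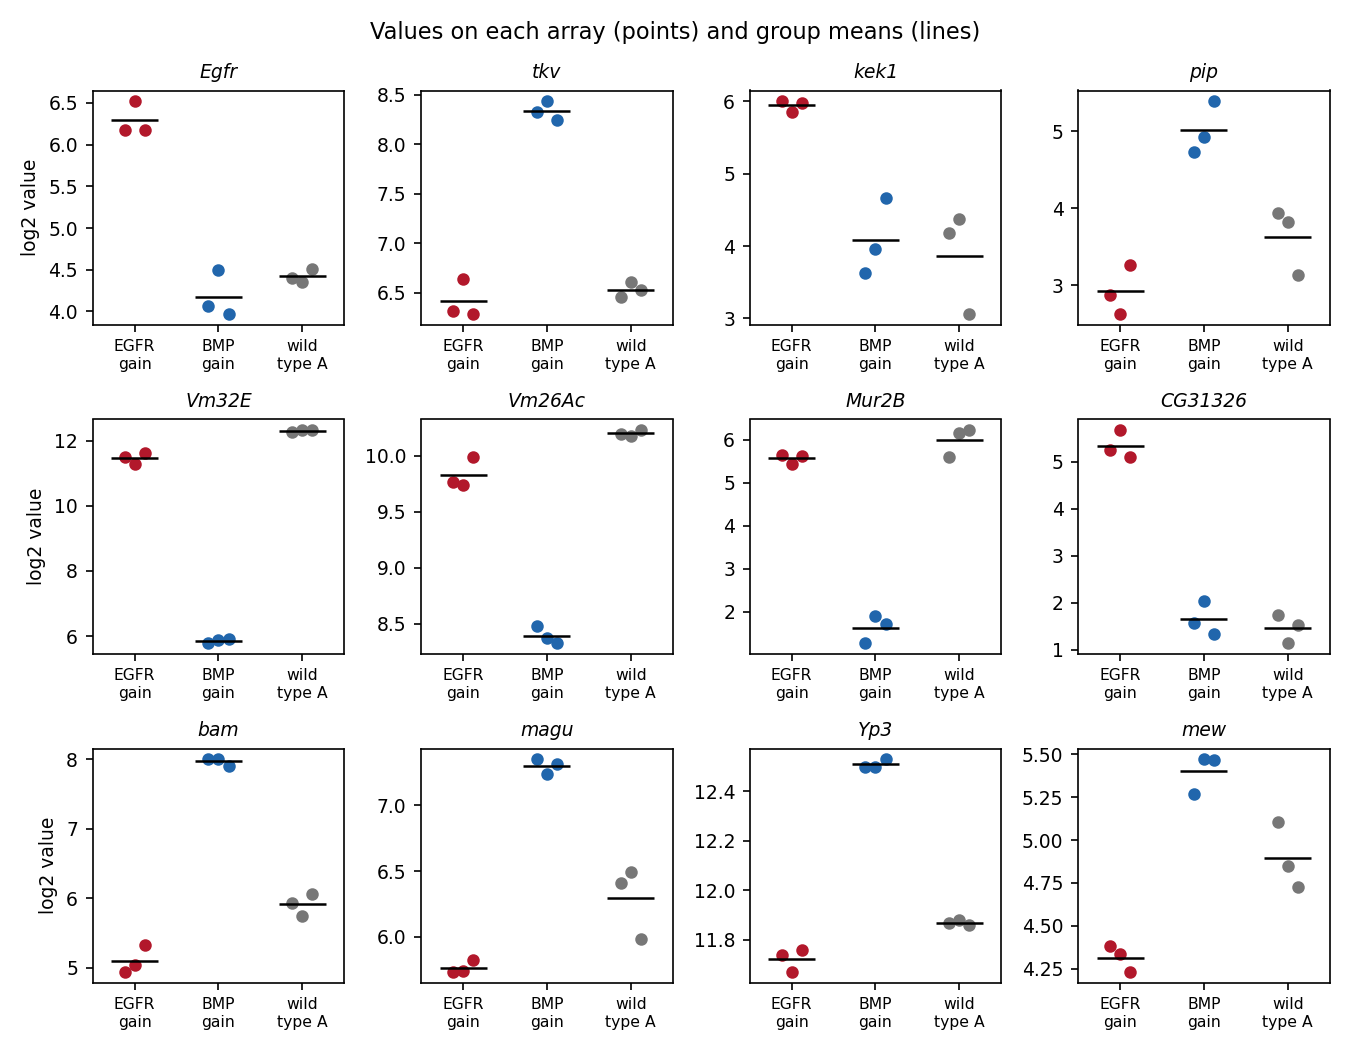
Each panel gives the log2 level of 1 gene on the 3 arrays of EGFR gain (red), BMP gain (blue) and wild type A (grey), with a line at the group mean; the vertical scale differs between panels. Vm32E, Vm26Ac and Mur2B are low in BMP gain, bam, magu and Yp3 are high in BMP gain, and CG31326 and kek1 are high in EGFR gain.

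Of 18 measured follicle cell patterning genes 1 was higher, 0 lower and 17 not called, with a median of 0.02. cbt (cabut), a zinc finger transcription factor, had levels of 6.81, 6.53 and 6.50 in EGFR gain and 5.65, 5.71 and 5.73 in BMP gain, against 6.14, 6.13 and 6.56 in wild type A. The difference was 0.92 ± 0.19 (adjusted p = 0.027), lost when any of the 6 arrays was left out (0.055 to 0.12). The homeobox gene ct had levels of 4.23, 3.94 and 4.28 in EGFR gain and 2.04, 2.81 and 2.31 in BMP gain, which do not overlap, and its difference of 1.76 ± 0.42 was not called (0.070). mirr, a dorsal fate gene of the Iroquois family, gave 0.45 ± 0.31 (0.66), and its relatives ara and caup gave 0.02 ± 0.63 and -1.22 ± 0.51 (0.38).

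pip (pipe), whose product marks the ventral eggshell and which dorsal EGFR signalling shuts off in the wild type, had levels of 2.87, 2.63 and 3.26 in EGFR gain and 4.73, 4.92 and 5.39 in BMP gain, against 3.94, 3.82 and 3.14 in wild type A. The EGFR gain and BMP gain arrays do not overlap, and the difference was -2.09 ± 0.71 with an adjusted p of 0.25. In the fit to the 12 arrays of the same round, which leaves out the arrays of the other round, the same difference was called (adjusted p = 0.0068). Among the alternatives run, pip was called only there. The BMP loss arrays of the other round, described below, had pip levels of -0.42, 3.01 and 3.52 and enter the SE of the main fit. wbl (windbeutel), which encodes an endoplasmic reticulum protein needed for Pipe to reach the Golgi, had levels of 6.29, 6.02 and 5.91 in EGFR gain and 4.84, 5.24 and 5.25 in BMP gain, against 5.45, 5.00 and 5.29 in wild type A. It was higher in EGFR gain by 0.96 ± 0.15 (0.0066), the opposite sign to pip, and was the only one of 13 ventral cue and Toll pathway genes called. The wbl call was lost in the limma fit to the 6 arrays alone (0.19) and with the replicate number as a block (0.053).

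Several patterning genes stood at like levels in the 2 groups. 18w, a Toll-family receptor gene of migrating follicle cells, had levels of 7.84, 7.61 and 7.86 in EGFR gain and 7.53, 7.72 and 8.02 in BMP gain, against 6.70, 6.53 and 6.63 in wild type A. Both groups lie above wild type A, and their difference was 0.01 ± 0.16 with a 95% interval of -0.33 to 0.34. bun, a leucine zipper factor of follicle cells, gave -0.10 ± 0.12 (interval -0.36 to 0.17), with both groups below wild type A. Its levels were 6.50, 6.75 and 6.58 in EGFR gain, 6.78, 6.75 and 6.58 in BMP gain and 7.16, 7.24 and 7.20 in wild type A. In the loss of function groups described below bun was also lower than wild type by limma. It gave -0.54 ± 0.12 in EGFR loss (adjusted p = 0.034) and -0.74 ± 0.12 in BMP loss (0.0066). br, the broad transcription factor gene of the dorsal appendage domains, gave 0.63 ± 0.48 (interval -0.42 to 1.67) and was too variable for a difference to be read.

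Among called genes whose higher group reached the median level of 4.24, each read by its brightest probe set, Mur2B and CG31326 had the largest rises in EGFR gain after Vm32E. Mur2B (Mucin related 2B), an extracellular matrix gene by its list, had levels of 5.66, 5.43 and 5.63 in EGFR gain and 1.27, 1.89 and 1.72 in BMP gain, against 5.59, 6.16 and 6.23 in wild type A. As with Vm32E, BMP gain stood apart below, and the difference was 3.95 ± 0.64 (adjusted p = 0.0078). CG31326 had levels of 5.25, 5.67 and 5.09 in EGFR gain and 1.57, 2.04 and 1.35 in BMP gain, against 1.74, 1.14 and 1.54 in wild type A. Here EGFR gain stood apart above, by 3.68 ± 0.23 (1.4e-06). The BMP gain levels of Mur2B and CG31326 lie at the low end of the scale and were not shown to be above background, so the sizes of both differences are uncertain. In CG13616 and CG46339 EGFR gain likewise stood above both other groups, with EGFR gain at 4.87 to 5.08 and 4.95 to 5.16, BMP gain at 2.62 to 2.89 and 2.71 to 3.15, and wild type A at 2.39 to 2.61 and 2.57 to 3.25. Their differences were 2.29 ± 0.36 (0.0066) and 2.16 ± 0.41 (0.019). The call of CG46339 was lost without any single array except BMP gain replicate 3 (up to 0.082).

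Genes of other functions were also higher in EGFR gain, several with BMP gain low against both other groups. CG17270 had levels of 6.37, 6.60 and 6.32 in EGFR gain and 3.81, 3.71 and 4.10 in BMP gain, against 7.24, 7.14 and 7.33 in wild type A, a difference of 2.56 ± 0.15 (adjusted p = 8.1e-07). The carboxylesterase gene alpha-Est10 had levels of 6.66, 6.49 and 6.75 in EGFR gain and 4.10, 4.60 and 2.80 in BMP gain, against 6.73, 6.79 and 6.79 in wild type A, a difference of 2.80 ± 0.33 (0.00067). CG13114, CG11381, CG18547 and CG15418 were higher by 1.61 to 2.31 (0.00089 to 0.0078). Of 158 measured detoxification genes 4 were higher and 1 lower, beside 0.684% higher and 0.665% lower over all genes. The higher were alpha-Est10, alpha-Est5 at 0.98 ± 0.16 (0.0081), Cyp12d1-d at 1.41 ± 0.19 (0.0016) and Cyp18a1, which inactivates the hormone ecdysone, at 0.69 ± 0.15 (0.040). The lower was the glycosyltransferase gene Ugt35A1, at -1.56 ± 0.35 (0.046). Cyp12d1-d has a near-identical neighbouring copy, Cyp12d1-p, and the array may read both. The list's median was 0.01, and the calls of Cyp18a1 and Ugt35A1 were lost without any single array of the 6 (up to 0.15 and 0.17).

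Genes for stress and defence differed in few cases. Hsp68, an inducible heat shock gene, had levels of 6.18, 5.23 and 5.68 in EGFR gain and 1.84, 3.85 and 3.37 in BMP gain, against 3.92, 4.39 and 4.67 in wild type A, a difference of 2.67 ± 0.54 (adjusted p = 0.028). The small heat shock gene Hsp26 was lower in EGFR gain, at 11.07, 11.02 and 11.25 against 11.58, 11.60 and 11.60 in BMP gain, a difference of -0.48 ± 0.08 (0.0067), and 13 of the 15 genes of its list were not called. The 12 measured immune genes had a median of 0.64, with 8 positive and 6 not overlapping between the groups, which was so for 19.7% of all genes by their representative probe set. Among them PGRP-SC2, an amidase that degrades peptidoglycan, was the only call, at 3.35, 3.40 and 2.97 in EGFR gain and 4.40, 4.85 and 3.95 in BMP gain, against 2.80, 2.57 and 2.35 in wild type A (-1.16 ± 0.22, 0.017). The antimicrobial peptide gene Mtk, at 5.83, 5.97 and 5.60 in EGFR gain and 3.79, 1.79 and 1.07 in BMP gain, was not called (3.58 ± 0.90, 0.087). The call of Hsp68 was lost without any single array except BMP gain replicate 2 (up to 0.12), and that of PGRP-SC2 without EGFR gain replicates 1 or 3 or BMP gain replicates 1 or 2 (up to 0.071).

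By the same measure the largest falls after bam were of genes with mixed functions. CG13101 had levels of 5.42, 4.88 and 5.58 in EGFR gain and 7.03, 6.96 and 6.97 in BMP gain, against 5.37, 6.01 and 5.77 in wild type A, a difference of -1.69 ± 0.18 (adjusted p = 0.00034) with BMP gain apart above. dati, a zinc finger gene, had levels of 3.18, 3.68 and 4.16 in EGFR gain and 5.38, 5.02 and 5.17 in BMP gain, against 5.51, 5.11 and 5.20 in wild type A, and here EGFR gain stood apart below (-1.52 ± 0.21, 0.0020). The dimmer dati probe sets, at the low end of the scale, gave -0.12 and -0.55, neither of them called. The dati call was lost in the limma fit to the 6 arrays alone (0.19). mew, which encodes an alpha chain of the PS1 integrin, had levels of 4.38, 4.33 and 4.23 in EGFR gain and 5.27, 5.47 and 5.46 in BMP gain, against 5.10, 4.85 and 4.73 in wild type A. EGFR gain was below and BMP gain above wild type A, with a difference of -1.09 ± 0.13 (0.00079), and mew was the only one of 19 measured adhesion and polarity genes called.

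The odorant-binding protein gene Obp99c gave -1.55 ± 0.27 (adjusted p = 0.0098), CG14102 -1.58 ± 0.28 (0.012) and Dpck, a coenzyme A synthesis gene, -0.91 ± 0.15 (0.0089). CG16868, the zinc finger gene noc, stl (stall), hebe and CG5853 were lower, with differences of -1.34 to -0.89 (0.012 to 0.049). These weaker calls depended on single arrays. That of CG14102 was lost without BMP gain replicate 3 (0.063), that of Obp99c without BMP gain replicate 1 (0.054) and that of hebe without EGFR gain replicate 1 or 2 or BMP gain replicate 3 (up to 0.063). Those of CG16868, noc, stl and CG5853 were lost without EGFR gain replicate 1 or any BMP gain replicate, and also without EGFR gain replicate 2 for noc, stl and CG5853 and replicate 3 for CG16868 and CG5853 (up to 0.19).

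Genes of DNA replication, through which follicle cells pass into endocycles and then amplify the chorion genes, were lower in EGFR gain in 4 of 18 measured cases, with 0 higher. Over all genes 0.665% were lower and 0.684% higher. The list's median was -0.28, beside -0.00 over all genes, 16 of 18 differences were negative, and in 12 of 18 the arrays did not overlap, against 19.7% of all genes. RnrL, the large subunit of ribonucleotide reductase, had levels of 8.48, 8.51 and 8.79 in EGFR gain and 9.05, 9.05 and 9.20 in BMP gain, against 8.86, 9.00 and 8.90 in wild type A (-0.50 ± 0.09, adjusted p = 0.013). PCNA, the sliding clamp of DNA polymerase, had levels of 9.31, 9.38 and 9.39 in EGFR gain and 9.85, 9.81 and 9.77 in BMP gain, against 9.18, 9.36 and 9.26 in wild type A (-0.45 ± 0.08, 0.019). For PCNA EGFR gain was at the wild type level, and for RnrL EGFR gain was the lowest group. The origin recognition genes Orc1 and Orc5 gave -0.48 ± 0.10 (0.040) and -0.37 ± 0.08 (0.032).

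The Mcm helicase genes gave smaller differences of one sign that were not called. dpa, the Mcm4 gene, gave -0.31 ± 0.08 (adjusted p = 0.092), Mcm6 -0.37 ± 0.10 (0.12), Mcm2 -0.32 ± 0.10 (0.18), Mcm5 -0.28 ± 0.09 (0.18) and Mcm3 -0.27 ± 0.10 (0.29), and the licensing gene dup gave -0.35 ± 0.09 (0.081). CycE, CycB, E2f1, Dp, fzr, Cdc6, chif and Orc2 lay from -0.22 to 0.16. The 4 calls were modest in size and each was lost without some single arrays: RnrL without EGFR gain replicate 1 or 2 or BMP gain replicate 3 (up to 0.065), and PCNA, Orc1 and Orc5 without any single array except EGFR gain replicate 3 (up to 0.085, 0.16 and 0.14).

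**Figure D4:**
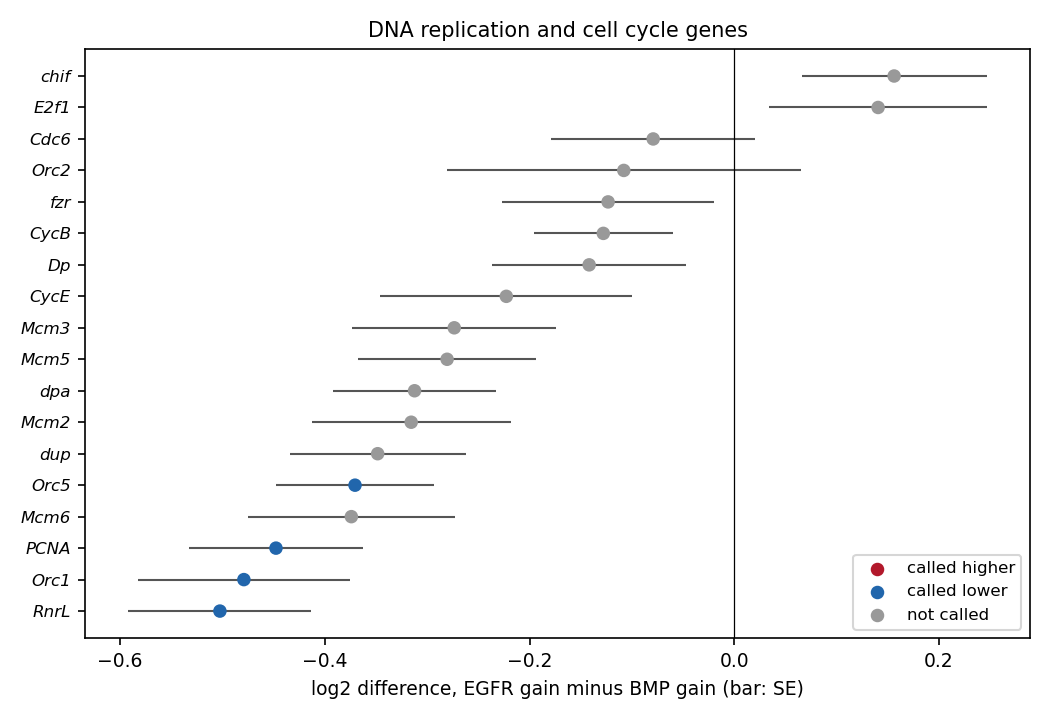
Points give the log2 difference (EGFR gain minus BMP gain) of the 18 measured DNA replication and cell cycle genes and bars its SE; blue is called lower and grey not called, and no gene was called higher. All but E2f1 and chif lie below 0, and RnrL is the lowest at -0.50.

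The other lists held few calls. None of 9 measured border cell and JAK/STAT genes, 9 Notch pathway genes or 9 JNK pathway genes was called by limma. Their medians were 0.03, 0.07 and 0.04, and 1, 0 and 1 of them had an unadjusted p under 0.05, beside 11.3% of all probe sets. Of 18 ecdysone response genes Cyp18a1, and of 14 extracellular matrix genes Mur2B, was the only call.

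The genes called here were also read on the EGFR loss and BMP loss arrays, which are not among the 6 compared. All 18 arrays set the pooled spread of the fit, so a probe set of small spread is more readily called in every contrast. The shares called in the loss groups are therefore not independent of the main calls. In EGFR loss (CY2-GAL4, UAS-dnEGFR, a dominant-negative receptor) against wild type A, 8 of the 96 probe sets higher in EGFR gain were called higher (8.33%) and 7 lower (7.29%), beside 1.69% and 1.48% of all probe sets. They made up 3.39% of the 236 probe sets called higher in EGFR loss and 3.38% of the 207 called lower. Of the 82 lower in EGFR gain, 5 were called higher (6.1%) and 6 lower (7.32%), or 2.12% and 2.9% of those 2 totals. In BMP loss (CY2-GAL4, UAS-Dad, an inhibitory Smad) against wild type B, its own OreR group, 9 of the 96 were called higher (9.38%) and 7 lower (7.29%), and 4 of the 82 higher and 4 lower (4.88% each), beside 1.12% and 1.17% of all. They were 5.77% and 4.27%, and 2.56% and 2.44%, of the 156 called higher and 164 called lower in BMP loss. In neither loss group did the called genes turn mainly one way. OreR carries neither driver nor transgene, so in these contrasts driver and strain background cannot be told apart from the loss of signalling.

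Single genes differed in what they did there. CG17270, low in BMP gain, was also lower in BMP loss, at 4.46 ± 0.14 against 6.93 ± 0.08 in wild type B (SD, n = 3; -2.47 ± 0.15, adjusted p = 7.8e-07), and in EGFR loss (-0.82 ± 0.15, 0.0087). alpha-Est10 likewise was lower in BMP loss, at 3.55 ± 0.27 against 6.07 ± 0.10 in wild type B (-2.52 ± 0.33, 0.0013), as was yellow-g (-1.66 ± 0.37, 0.031). cbt, low in BMP gain, was higher in BMP loss, at 6.87 ± 0.12 against 5.73 ± 0.22 in wild type B (1.14 ± 0.19, 0.0053). CG13101, high in BMP gain, was also higher in BMP loss (1.03 ± 0.18, 0.0091). PGRP-SC2 was higher in EGFR loss, at 4.81 ± 0.33 against 2.57 ± 0.23 in wild type A (2.24 ± 0.22, 8.1e-05), and Yp3 was lower there (-0.62 ± 0.06, 6.6e-05). Vm32E, Vm26Ac, bam, magu and mew, by contrast, were called in neither loss group.

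**Figure D5:**
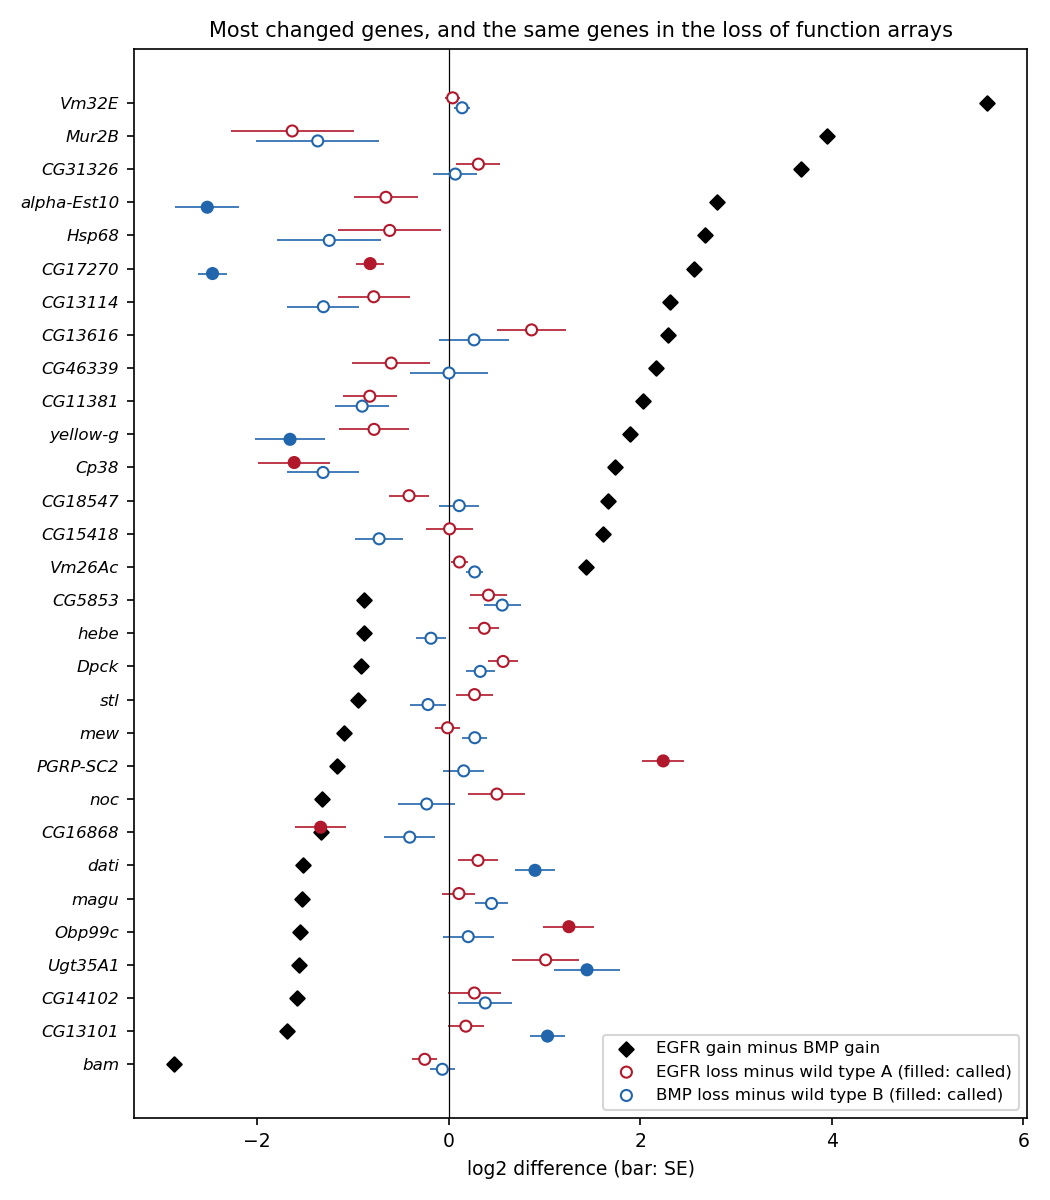
For the 15 largest rises and 15 largest falls, black diamonds give the log2 difference EGFR gain minus BMP gain, red circles EGFR loss minus wild type A and blue circles BMP loss minus wild type B, with SE bars and filled circles where called. CG17270 is the only gene with both circles filled, and those of Vm32E and bam lie near 0.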

How the data were processed

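Total RNA from pooled egg chambers (20 per collection, 3 µg per labelling, per the labels' protocols) was measured on Affymetrix arrays, 3 arrays in each of 6 groups taken from the sample titles. The authors deposited 1 table of log2 values for 14010 probe sets on 18 arrays; the submitters' processing notes name affy, and the summary method, background correction and any detection filter are not given in the sources used here. No further scaling was applied.

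All 18 arrays were fitted as 6 group means with limma 3.58.1 in R 4.3.3 (12 residual degrees of freedom, prior 1.31), assuming a shared spread, with Benjamini-Hochberg adjustment over 13966 probe sets; the other tests in the text come from the same fit. Intervals are unadjusted 95% intervals of a difference. Precision is limited by the number of arrays. Of the probe sets 12443 named 1 gene, 327 several and 1196 none; 12394 were matched by gene number, 4 by symbol and 38 by an older symbol in RefSeq's table for Release 6 plus ISO1 MT, and 7 kept their name. A gene's brightest probe set over all arrays represented it. The rule for named genes took the driven genes, the members of the EGFR, BMP, patterning, vitelline membrane, chorion and yolk lists, the 15 called genes that rose most and the 15 that fell most, where the higher group reached 4.24 (the median of all means), and up to 4 called members of each other list. The comparison, its gene lists and tests were chosen with earlier results of these data known. The fit was tested on simulated data. Alternatives were other sets of arrays, moderation, weights, a filter, 2 scalings, a replicate block and single arrays left out.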

Additional observations from a re-analysis of the deposited data

How the results depend on the processing

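No named call changed sign under any alternative, while the number of calls moved. Fitted to the 6 arrays alone there were 41 calls (27 higher and 14 lower in EGFR gain; 28 shared with the 178), and fitted to the 12 arrays of the same round 78 (52 and 26; 70 shared). An intensity trend with robust moderation gave 281 calls with 141 lower, array weights gave 125 lower among 257, and testing only probe sets at or above the median in 1 of the groups gave 309 (154 and 155; 162 shared), with fewer features tested. Leaving out 1 array at a time gave 89 to 138 calls, 52 to 68 higher and 34 to 71 lower. Quantile normalization and median centring gave 167 and 183, with 53.9% and 49.7% higher beside 53.9%. The count over the gene lists was 26, and 27 with each gene's lowest-p probe set. Of 46 named calls, 25 survived each omission of 1 array, 15 the fit to the 6 arrays and 14 under all alternatives, among them Vm32E, Vm26Ac, Mur2B, CG31326, bam, magu, Yp3 and mew. The largest rises and falls were chosen with the same cut as the filter on dim probe sets, so that filter could drop none of them. Mur2B and CG31326 pass it only through EGFR gain, where they are high. csw with array weights (adjusted p = 0.05 as rounded), kek1 (0.039, passing the filter only through EGFR gain) and edl (0.038) with dim probe sets removed, and pip in the fit to its round (0.0068) became calls. The labels give only a replicate number, and correlations this near 0 cannot settle whether equal numbers pair the samples. Deviations of same-numbered EGFR gain and BMP gain arrays correlated at 0.023, 0.0033 and 0.046, within -0.041 to 0.046 over all pairs. EGFR gain replicates 1 and 3 correlated best with the same-numbered BMP gain array, and EGFR gain replicate 2 with BMP gain replicate 1. With the replicate number as a block there were 102 calls (61 higher and 41 lower; 91 shared). The cause of these changes was not tested. Folds of dim genes depend on background handling that is not given, and genes not named on the array are not analysed here.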

Other observations

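Further called genes, picked out after their values were seen and so given as values with no test of a group, included several of the secretory pathway that were picked from the calls higher in EGFR gain (limma, adjusted over all probe sets). Fkbp14, an endoplasmic reticulum prolyl isomerase, had log2 levels of 6.98, 6.92 and 6.77 in EGFR gain and 6.16, 6.32 and 6.28 in BMP gain (0.64 ± 0.11, SE; adjusted p = 0.0097). Stt3B, a subunit of the oligosaccharyl transferase, stood at 9.42, 9.33 and 9.46 in EGFR gain and 8.92, 8.98 and 9.09 in BMP gain (0.40 ± 0.07, 0.0097). The coat protein gene deltaCOP, the retrieval receptor gene KdelR, the signal recognition particle receptor gene SrpRalpha and the translocation gene Trp1 gave 0.36 to 0.40 (0.028 to 0.048). Trp1 was also higher in both EGFR loss (0.54 ± 0.07, 0.00085) and BMP loss (0.72 ± 0.07, 0.00011), each against its own wild type. Both of these contrasts also hold the difference in driver and strain background. mav (maverick), a ligand of the TGF-beta family, was higher in EGFR gain, at 6.52, 6.76 and 6.71 against 6.24, 5.65 and 5.87 in BMP gain (0.75 ± 0.12, 0.0071). ImpL2, a secreted insulin-binding protein, was higher by 1.02 ± 0.14 (0.0016).

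The genes that follow lie outside the replication list and were picked from the calls lower in EGFR gain after their values were seen, so their shared direction is no finding. Ts, thymidylate synthase, had levels of 6.53, 6.76 and 6.58 in EGFR gain and 7.43, 7.35 and 7.21 in BMP gain (-0.71 ± 0.09, 0.00087), and dnk, a deoxynucleoside kinase, gave -0.43 ± 0.08 (0.015). The histone chaperone gene asf1 and the histone mRNA processing gene Lsm11 gave -0.46 ± 0.08 (0.0096) and -0.70 ± 0.11 (0.0066), and l(2)dtl, which acts in the turnover of replication proteins, gave -0.67 ± 0.13 (0.023). The centriole gene ana2 had levels of 7.33, 7.41 and 7.41 in EGFR gain and 8.16, 8.13 and 8.09 in BMP gain, against 7.45 ± 0.05 in wild type A (SD, n = 3; -0.75 ± 0.08, 0.00024).

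Of the 178 calls 16 had their higher group below the median of all means, and these dim genes were not ranked. Ir76a, an ionotropic receptor gene, had the most negative difference of all, at 0.36, -0.32 and 2.10 in EGFR gain and 3.88, 4.09 and 4.15 in BMP gain, against 4.68 ± 0.37 in wild type A (-3.33 ± 0.44, 0.0017). Among called genes only 3 pairs were neighbours in the annotation, 1 of the same sign (CG14102 and Ir76a) and 2 of opposite sign.

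All 3 probe sets of the mucin gene Muc4B, not dim in EGFR gain, were called higher in EGFR gain, by 1.39 to 4.21. The brightest gave 1.39. Those that gave 4.21 and 3.93 had BMP gain means of 1.84 and 1.21. These means lie at the low end of the scale, so the sizes of both differences are uncertain. The probe set with 4.21 was lower in BMP loss than in wild type B (-3.99 ± 0.83, limma, adjusted p = 0.022).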
